A study of Mus musculus with 6 samples.

Results

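The levels of 10 secreted signalling genes were followed across the cells of the mouse aortic root and ascending aorta: the chemokines Cxcl1, Cxcl2, Cxcl10, Cxcl12, Ccl2, Ccl7, Ccl8, Ccl11 and Ccl19, and the cytokine Il6. These 10 of the 31055 features in the matrix were taken by gene symbol, and all 10 had counts. Single cells were profiled by droplet 3′ RNA sequencing, in which a unique molecular identifier (UMI) marks each captured transcript. The tissue came from 6 female mice aged 16 weeks, all on a 129-derived strain background. CTL (control) replicates 1 and 2 had the genotype Tgfbr1+/+ with Wnt2CRE and EGFP-L10a, a Cre driver meant for cardiac neural crest-derived cells together with a Cre-dependent tracer. CTL replicates 3 and 4 were Tgfbr1+/+ with no Cre given. LDS replicates 1 and 2 were Tgfbr1M318R/+, a model of Loeys-Dietz syndrome in which all cells carry a missense allele of the type I TGF-β receptor. The vessels were digested with collagenase, elastase and DNase, and live cells were sorted before capture. All mice were pooled into a single matrix whose barcodes end in a number from 1 to 6. The labels do not say which mouse each number stands for, so the numbers are called libraries 1 to 6 here and no comparison of CTL with LDS was made. Values are therefore given for each library, or as the lowest, median and highest library, without a p-value.

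Cells with 1000 to 5000 genes, 1500 to 25000 UMIs and under 20% mitochondrial UMIs were used. This left 24972 of 30716 barcodes, with 3225, 2859, 5019, 6395, 5611 and 1863 cells in libraries 1 to 6. The cells were clustered without the 10 genes and sorted into classes by marker genes. There were 13613 fibroblast-like cells, 10245 vascular smooth muscle cell (VSMC)-like cells, 570 endothelial-like cells and 544 leukocyte-like cells. The markers matched these names. The summed fibroblast markers had a median of 46520 counts-per-million (CPM, the UMIs of a gene scaled to a common total) in fibroblast-like cells and 3068 CPM in VSMC-like cells, while the summed VSMC markers had 68030 CPM in VSMC-like cells and 2092 CPM in fibroblast-like cells. Leukocyte-like cells were split into 403 macrophage-like cells led by C1qb, C1qa and C1qc, 104 lymphocyte-like cells led by Cd3e, and 37 neutrophil-like cells, of which 33 were in library 6. Endothelial-like cells numbered 52, 35, 130, 257, 86 and 10 in libraries 1 to 6, so the values of this class in library 6 rest on 10 cells. Libraries were not fully separate. Of 27654 barcode sequences, 1612 occurred in more than 1 library, and pairs among libraries 1, 3, 4 and 5 shared 638 to 1101 of them. Libraries 2 and 6 shared 244, and every pair across these sets shared 2 to 8. The study's methods state that samples were prepared on multiple days, but not on which day each library was made. Of the cells used, 1590 had a barcode seen in another library. The counts of members that were higher, lower or above the free RNA level in the comparisons recomputed without those cells were the same.

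Chemokines are small secreted proteins that draw leukocytes along a gradient by binding receptors on their surface. Cxcl1 and Cxcl2 act through Cxcr2 and recruit neutrophils. Cxcl10 acts through Cxcr3 on activated T cells and is a classical interferon-induced gene. Ccl2, Ccl7 and Ccl8 recruit monocytes, the first and second of them mainly through Ccr2. Ccl11, or eotaxin, recruits eosinophils through Ccr3, and Ccl19 guides T cells and dendritic cells through Ccr7. Cxcl12 is a homeostatic chemokine, made constitutively by stromal cells and bound by Cxcr4 and by the scavenging receptor Ackr3. Il6 signals through Il6ra and the shared subunit Il6st. Cxcl1, Cxcl2, Ccl2, Ccl7 and Il6 are well-known NF-κB targets that are transcribed within a short time of tissue injury, including the injury of enzymatic dissociation. Measures of dissociation and of free RNA are therefore given beside the results.

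The genes lie in clusters. By the GENCODE M21 annotation of mm10, Cxcl1 was at chr5:90891241-90893115 and Cxcl2 at chr5:90903871-90905938, next to each other on the plus strand. Ccl2, Ccl7, Ccl11 and Ccl8 followed one another on the plus strand of chromosome 11, at chr11:82035571-82037453, chr11:82045712-82047525, chr11:82057823-82062955 and chr11:82115185-82116799. Cxcl10 was at chr5:92346638-92348889 on the minus strand, Cxcl12 at chr6:117168535-117181367 on the plus strand and Il6 at chr5:30013114-30019981 on the plus strand. Ccl19 was at chr4:42754525-42756577 on the minus strand. A second feature named Ccl19 on an unplaced scaffold had 0 UMIs, and near-identical copies of Ccl19 exist in the genome, so its counts are uncertain.

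Promoters were read from RefSeq for GRCm38.p6, where 7 of the 10 genes had an entry, and 4 short motifs were searched on both strands of the 250 bases before the RefSeq start. The motifs were a narrow form of the NF-κB site, GGGANTTTC, the interferon response element GAAANNGAA, the C/EBP site TTNNGCAA and the AP-1 site TGANTCA, which reads the same on both strands. The NF-κB site occurred in 0.941% of 32851 promoter windows of the same length, the interferon response element in 7.13%, the C/EBP site in 9.56% and the AP-1 site in 6.75%. The windows of Cxcl1, Cxcl2 and Il6 each held the NF-κB letters, at 71 to 63, 97 to 89 and 44 to 36 bases before the start. The Il6 window also held C/EBP and AP-1 letters, the windows of Cxcl10 and Ccl19 held interferon response letters, and that of Cxcl10 held AP-1 letters as well. None of the 4 motifs was found in the windows of Cxcl12 and Ccl8. Such a match describes letters in a window and is not evidence of a bound factor. Other forms of these sites were not searched, so a window without a match, such as that of Cxcl10 for NF-κB, may still hold one. The windows are shown for the 3 genes with the NF-κB letters, for Cxcl10 with its interferon response and AP-1 letters, and for Cxcl12. As given below, Cxcl12 was the only member lower in every library in the fibroblast-like cells with the largest share of dissociation-induced genes. Capitals mark the motif matches, and each sequence is written along the gene's own strand. The windows were chr5:90890995-90891244 (plus) for Cxcl1, chr5:90903649-90903898 (plus) for Cxcl2, chr5:30012864-30013113 (plus) for Il6, chr5:92348890-92349139 (minus) for Cxcl10 and chr6:117168285-117168534 (plus) for Cxcl12.
Cxcl1: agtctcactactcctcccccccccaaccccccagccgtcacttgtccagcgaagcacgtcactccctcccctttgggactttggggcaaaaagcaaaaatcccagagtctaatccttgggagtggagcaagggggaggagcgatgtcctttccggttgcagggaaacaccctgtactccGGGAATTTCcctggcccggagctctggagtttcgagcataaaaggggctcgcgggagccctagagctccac
Cxcl2: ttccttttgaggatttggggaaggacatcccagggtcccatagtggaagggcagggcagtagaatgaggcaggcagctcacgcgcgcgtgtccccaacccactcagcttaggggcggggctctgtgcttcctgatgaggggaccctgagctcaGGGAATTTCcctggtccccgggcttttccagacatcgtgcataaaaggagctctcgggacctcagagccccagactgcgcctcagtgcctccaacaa
Il6: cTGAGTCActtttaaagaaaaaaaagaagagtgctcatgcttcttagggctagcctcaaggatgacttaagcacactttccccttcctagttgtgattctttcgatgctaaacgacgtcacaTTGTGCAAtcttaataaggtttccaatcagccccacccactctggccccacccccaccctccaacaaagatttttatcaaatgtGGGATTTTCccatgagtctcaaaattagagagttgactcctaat
Cxcl10: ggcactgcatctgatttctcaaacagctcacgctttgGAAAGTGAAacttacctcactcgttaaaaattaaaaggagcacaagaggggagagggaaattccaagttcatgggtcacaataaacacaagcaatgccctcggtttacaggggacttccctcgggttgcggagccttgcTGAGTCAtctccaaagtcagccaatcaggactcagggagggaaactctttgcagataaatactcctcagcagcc
Cxcl12: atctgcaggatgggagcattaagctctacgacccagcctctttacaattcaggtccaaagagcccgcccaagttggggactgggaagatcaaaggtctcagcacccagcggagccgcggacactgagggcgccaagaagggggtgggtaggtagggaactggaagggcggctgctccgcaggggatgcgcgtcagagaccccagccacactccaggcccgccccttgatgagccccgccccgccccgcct

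Expression fell into 3 patterns by cell class. Cxcl1, Cxcl12, Ccl2, Ccl7, Ccl8, Ccl11, Ccl19 and Il6 had most of their UMIs in fibroblast-like cells. Cxcl2, and Cxcl10 except in library 5, had most of theirs in leukocyte-like cells, although that class made up only 2.18% of the cells. Cxcl12 and Il6 were in addition abundant in endothelial-like cells, while VSMC-like cells had low levels of every gene except Cxcl12. Because a 3′ read marks a transcript once whatever its length, levels of different genes can be set side by side on the CPM scale.

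**Figure D1:**
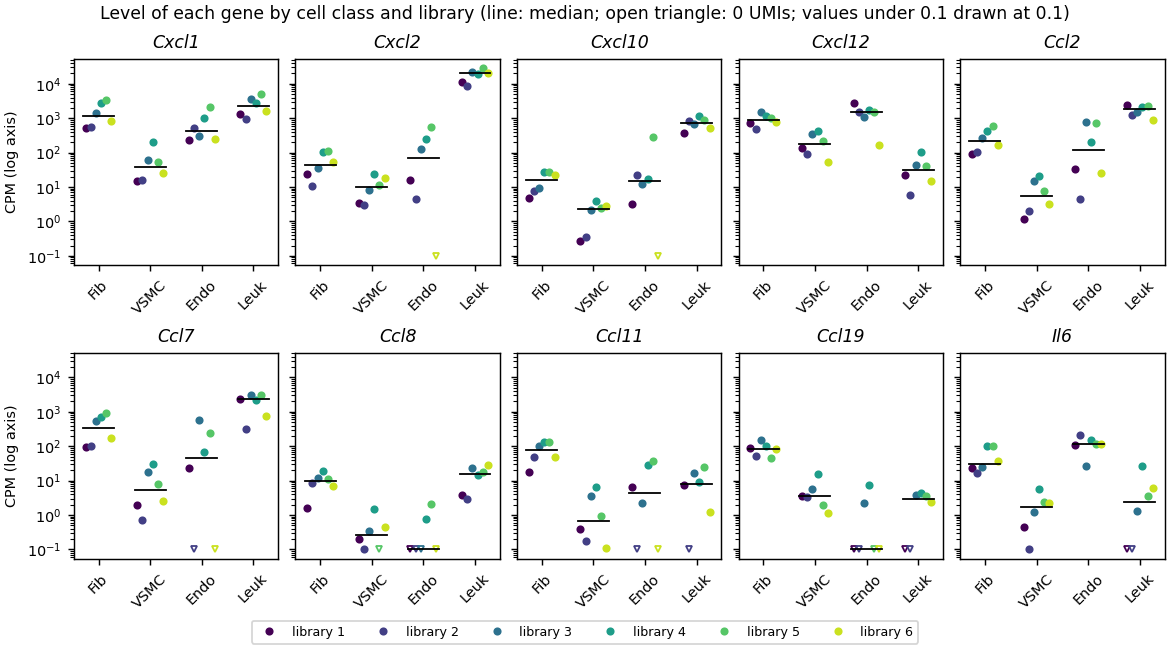
Each panel plots 1 gene, with its level in CPM on a log axis for the 4 cell classes; each dot is 1 library, the line is the median, open triangles mark libraries with 0 UMIs, and values under 0.1 CPM are drawn at 0.1. In all 10 panels the fibroblast-like dots lie above the VSMC-like dot of the same library, and the Cxcl2 dots of leukocyte-like cells lie between 8697 and 27980 CPM.

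The neutrophil attractants Cxcl1 and Cxcl2 differed in their main source. Cxcl1 had 534, 557, 1406, 2730, 3460 and 844 CPM in the fibroblast-like cells of libraries 1 to 6. It was lowest in libraries 1 and 2 and highest in libraries 4 and 5. In VSMC-like cells the same libraries had 15.1, 16.2, 59.95, 210.7, 51.9 and 24.95 CPM, so the classes did not overlap. In endothelial-like cells Cxcl1 had 240.0 to 2067 CPM with a median of 416 CPM, and in leukocyte-like cells 930 to 5045 CPM with a median of 2238 CPM. The leukocyte level was above the fibroblast level in 6 of 6 libraries, but the ranges of these classes overlapped, as did those of fibroblast-like and endothelial-like cells. Owing to cell numbers, 90.4% of all Cxcl1 UMIs were still in fibroblast-like cells.

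Cxcl2 was concentrated in leukocytes. Leukocyte-like cells had 11290, 8697, 22600, 19760, 27980 and 21010 CPM in libraries 1 to 6. Fibroblast-like cells had 24.1, 10.9, 34.9, 107.3, 112.8 and 52.6 CPM and VSMC-like cells 3.09 to 24.4 CPM. No library overlapped between leukocytes and any other class. Macrophage-like cells had 10400 to 32300 CPM, and neutrophil-like cells had 48880 CPM over all libraries, a value set mainly by library 6, where 33 cells had 56780 CPM. Lymphocyte-like cells had a median of 64.4 CPM. Leukocyte-like cells held 90.3% of all Cxcl2 UMIs, and 1 of them had 1203.

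Cxcl10 followed Cxcl2 at a lower level. It had 374 to 1171 CPM in leukocyte-like cells with a median of 749 CPM, against 4.72 to 28.1 CPM in fibroblast-like cells and 0.265 to 4.05 CPM in VSMC-like cells. Over all libraries, leukocytes held 58.2% of its UMIs and fibroblast-like cells 34.4%. In library 5 the order was the opposite, with 33.1% in leukocytes and 43.4% in fibroblast-like cells. The level in macrophage-like cells was 402 to 1332 CPM. Neutrophil-like cells had 216 Cxcl10 UMIs, all of them in library 6.

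The monocyte attractants Ccl2 and Ccl7 were high in both fibroblast-like and macrophage-like cells. Ccl2 had 92.6, 104.0, 270.9, 432.0, 598 and 162 CPM in the fibroblast-like cells of libraries 1 to 6, and Ccl7 had 93.4, 102.6, 525, 693, 928 and 168 CPM. The libraries stood in nearly the same order as for Cxcl1, with 1 and 2 lowest and 5 highest. Macrophage-like cells had 1403 to 2993 CPM of Ccl2, above the fibroblast range. Their Ccl7 was 394 to 3577 CPM and overlapped the fibroblast range through library 2. VSMC-like cells had 1.19 to 20.3 CPM of Ccl2 and 0.727 to 29.7 CPM of Ccl7. Neutrophil-like cells had 0 UMIs of both genes, which in 161819 UMIs allows a level of up to 18.5 CPM (3 counts, counting error only). Endothelial-like cells had 4.42 to 760 CPM of Ccl2 and 0 to 584 CPM of Ccl7, and overlapped both fibroblast-like and VSMC-like cells.

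Ccl8 was scarce everywhere. It had 1.61, 8.38, 11.99, 19.5, 10.9 and 6.93 CPM in the fibroblast-like cells of libraries 1 to 6 and a median of 0.266 CPM in VSMC-like cells. Leukocyte-like cells had 2.96 to 28.5 CPM from 61 UMIs, all of them in macrophage-like cells, and were above the fibroblast level in 4 of 6 libraries. Only 2 UMIs were found in endothelial-like cells.

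Ccl11 and Ccl19 were the members most restricted to fibroblast-like cells, which held 97.1% and 95.1% of their UMIs. Ccl11 had 17.6, 49.4, 103.2, 130.6, 137.0 and 49.6 CPM there and 0.113 to 6.50 CPM in VSMC-like cells. Ccl19 had 87.1, 51.0, 150.9, 102.8, 45.6 and 82.3 CPM, against 1.13 to 15.6 CPM. Unlike the injury-associated genes, Ccl19 was highest in library 3 and lowest in library 5. Only 12 Ccl19 UMIs were found in endothelial-like cells and 10 in leukocyte-like cells, and neither Ccl11 nor Ccl19 overlapped between fibroblast-like and VSMC-like cells.

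Cxcl12 was the most abundant of the 10 genes in VSMC-like cells in every library. Endothelial-like cells had 2696, 1471, 1075, 1766, 1484 and 166 CPM in libraries 1 to 6, the last from 10 cells. Fibroblast-like cells had 738, 499.6, 1527, 1135, 1012 and 768 CPM, so the endothelial level was the higher in 4 of 6 libraries and the ranges overlapped. VSMC-like cells had 136, 94.4, 345, 438, 224 and 54.4 CPM. These were below the fibroblast range in every library. Leukocyte-like cells had 5.92 to 106.4 CPM.

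Il6 was higher in endothelial-like than in fibroblast-like cells in 6 of 6 libraries, although the ranges overlapped. Endothelial-like cells had 112, 212, 27.5, 157, 117 and 115 CPM, and fibroblast-like cells had 22.9, 16.6, 25.5, 99.0, 100.3 and 36.9 CPM. The difference was smallest in library 3. VSMC-like cells had 0.0908 to 5.66 CPM. Leukocyte-like cells had only 31 Il6 UMIs, of which 24 were in library 4.

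Cells were also counted by whether they held a UMI, after each was thinned to 3000 UMIs so that depth could not differ. Cxcl1 was found in 45.8% of 12379 fibroblast-like cells (exact binomial 95% interval 44.9 to 46.6%, counting error only) and in 6.18% of 9695 VSMC-like cells (5.71 to 6.68%). Before thinning, when the median depth of these cells was 6451 and 7440 UMIs, the shares over all cells of the classes were 52.5% and 11.6%. Cxcl12 was found in 63.2% of fibroblast-like and 30.2% of VSMC-like cells, against 6.73% of 446 leukocyte-like cells with a median depth of 6041 UMIs, a class not known for making it. Lymphocyte-like cells, not known for making Cxcl1, had it in 5 of 68 cells after thinning, or 7.35% (2.43 to 16.3%). That interval holds the share of VSMC-like cells and is too wide to place that share above or below this background. Before thinning the lymphocyte share was 9 of 104 cells, or 8.65%, at a median depth of 3471 UMIs. Of the lymphocyte-like cells, 7.69% were marked as doublets. Il6 was found in 7.15% of fibroblast-like and 10.1% of endothelial-like cells, and in 0.897% of leukocyte-like cells. The VSMC share of Il6 was 0.382% (0.269 to 0.526%). It was not detectably different at this depth from the leukocyte share, which rested on 4 cells (0.245 to 2.28%).

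Fibroblast-like cells were compared with VSMC-like cells within each library on UMI sums, as log2 ratios with 0.5 UMI added. A gene was counted as higher or lower when all 6 libraries had that direction. All 10 members were higher in fibroblast-like cells, a direction held by 38.1% of the 8733 genes that reached 10 CPM in either class, the opposite one being held by 34.7%. Of the 10, 6 (Cxcl10, Ccl2, Ccl8, Ccl11, Ccl19 and Il6) reached that minimum only through fibroblast-like cells, so their direction was largely set by it and their count cannot be read against that share. The median log2 ratio over libraries was 5.09 for Cxcl1 (3.70 to 6.06), 5.66 for Ccl2, 5.76 for Ccl7, 6.24 for Ccl11 (4.32 to 8.18), 4.84 for Il6 and 4.55 for Ccl19. It was smaller for Cxcl12, at 2.29 (1.37 to 3.82), and for Cxcl2, at 2.10. Leaving out 1 library moved the median of Ccl11 between 5.33 (without library 2, 5 or 6) and 7.14 (without library 1, 3 or 4). The median over the 10 members was 4.69, a value that includes those 6 and so was not set against other genes. Ccl8 was no longer higher in every library when the 1% of cells with the most of it were left out. The share of UMIs from 29 genes known to be induced by dissociation, among them immediate early and heat shock genes, was 2.65% in fibroblast-like and 1.94% in VSMC-like cells as a median over libraries. With cells matched on that share, all 10 members were again higher. For the 6 members named above the minimum had largely set this direction, so the count says nothing further about them.

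Free RNA, released by broken cells and captured in every droplet, was estimated for VSMC-like cells from 8 abundant fibroblast genes. Their summed level in VSMC-like cells was 8.72 to 15.0% of the fibroblast level, with a median of 11.6%. Multiplying each member's fibroblast level by this share gave an estimate of the level that free fibroblast RNA alone would give. It holds only if VSMC-like cells do not transcribe the 8 genes themselves, which was not tested. Only 1 of 10 members, Cxcl2, was above this estimate in 6 of 6 libraries, at a median of 9.90 against 5.08 CPM, while 94.3% of all genes tested were above theirs. Genes were tested when they reached 10 CPM in either class. Cxcl10, Ccl2, Ccl8, Ccl11, Ccl19 and Il6 did so only through fibroblast-like cells, so the count of members cannot be read against the 94.3%. Cxcl12 was above the estimate in 5 of 6 libraries, at a median of 180.3 against 86.0 CPM, the exception being library 6 with 54.4 against 75.1 CPM. Cxcl1 (38.4 against 142 CPM), Ccl2 (5.53 against 27.4 CPM), Ccl7 (5.25 against 46.0 CPM), Ccl11 and Il6 (1.76 against 3.63 CPM) were below it in every library. Free RNA at the estimated level would by itself have reached it, so the estimate was too high for these genes.

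The 8 genes used for this estimate did not stand in a single ratio. Dcn and Dpt were at 2.02% and 1.77% of their fibroblast level in VSMC-like cells, but Mgp, Col1a1 and Col1a2 were at 23.6%, 24.6% and 29.2%. With Dcn alone, 5 members were above the free level in every library: Cxcl1, Cxcl2, Cxcl10, Cxcl12 and Ccl19. The median log2 ratio of Cxcl1 to its free level was then 0.33, and that of Cxcl12 was 2.92. Ccl2, Ccl7, Ccl8 and Ccl11 were near or under it with medians of -0.16, -0.30, -0.02 and -0.58. When free macrophage RNA was added to the estimate from the 8 genes, Cxcl2 was above it in 2 of 6 libraries, and no member was above it in all 6. For Cxcl1, Cxcl2, Cxcl10, Ccl19 and Il6 in VSMC-like cells, free RNA and transcripts of the cells themselves cannot be told apart from these values.

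**Figure D2:**
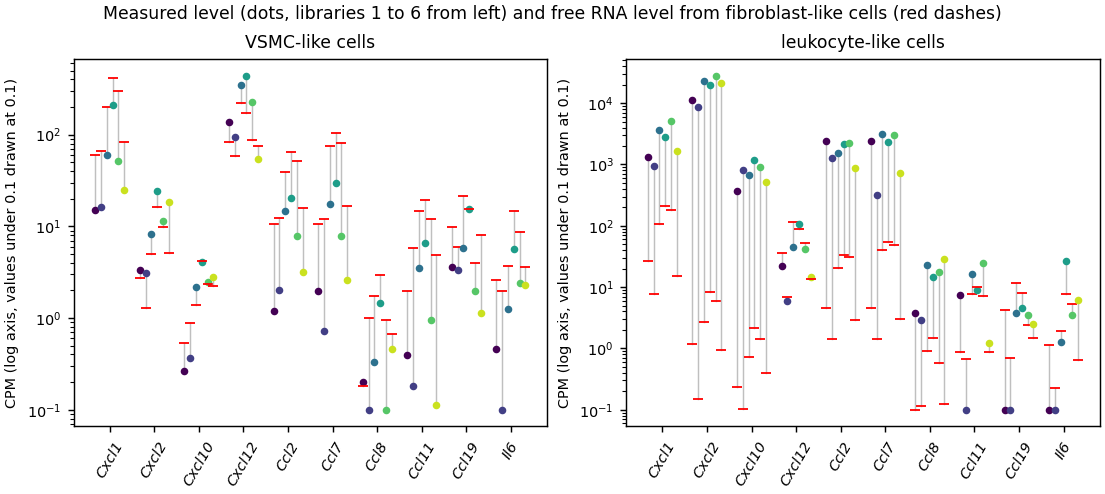
For VSMC-like cells and leukocyte-like cells, dots give each gene's measured level per library in CPM on a log axis, and red dashes the level of free fibroblast RNA as estimated from the 8 genes. In VSMC-like cells the dots of Cxcl1, Ccl2, Ccl7, Ccl11 and Il6 lie below their dashes in all 6 libraries, and in leukocyte-like cells those of Cxcl1, Cxcl2, Cxcl10, Ccl2, Ccl7 and Ccl8 lie above them.

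The same estimate separated the genes in leukocytes. There the 8 genes were at 5.08% of the fibroblast level. Cxcl1, Cxcl2, Cxcl10, Ccl2, Ccl7 and Ccl8 were above the free level in 6 of 6 libraries, where 84.6% of all genes tested were. Ccl8 was not above it in every library without the 1% of cells with the most of it. Cxcl12, Il6 and Ccl19 were above it in 2 of 6 libraries each and Ccl11 in 4. Il6, Ccl19 and Ccl11 reached the minimum of 10 CPM only through fibroblast-like cells. The count of members therefore cannot be read against the 84.6%. In endothelial-like cells, where the share was 8.42%, Cxcl1 had 416 against 199 CPM and Il6 had 116 against 4.77 CPM, both above in 6 of 6 libraries. Endothelial Cxcl12 was above in 5 of 6, again not in library 6. In fibroblast-like cells, free macrophage RNA estimated in the same way would give a median of 20.6 CPM of Cxcl2 against 43.75 CPM measured. Its share varied between libraries, with 21.3 of 112.8 CPM in library 5 and 26.0 of 34.9 CPM in library 3. It would give a median of 6.56% of the measured Cxcl10 and under 1% of each other member.

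Some VSMC-like cells carried another class's genes, and the members were concentrated in them. Among the VSMC subclusters, 188 cells were led by markers of another class. Most of them, 171 cells led by Cygb, Abca8a and Clec3b, were fibroblast-like in their leading genes, and 77.2% were marked as doublets. The 188 cells held 2.54% of all UMIs of the class. They held 43.0% of its Cxcl1 UMIs, 45.5% of Ccl7, 62.2% of Ccl11 and 38.7% of Il6, but 6.11% of Cxcl12. Without them the median Cxcl1 level of VSMC-like cells was 28.8 CPM, and library 4, the highest, fell to 83.8 CPM. Among the fibroblast-like cells 1008, with 8.97% of the UMIs of that class, were in subclusters led by another class. Of these, 955 were led by Myh11, Susd5 and Cnn1, with VSMC markers among the leading genes and 19.3% marked as doublets, and 53 by glial markers. They held 1.23 to 6.35% of the UMIs of each member in the class.

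Within fibroblast-like cells the members marked different subclusters. Subclusters are named here by their leading genes, and 7 of them were not led by another class. The 3911 cells of the Has1/Ifi211/Tnfaip6 subcluster, marked by the hyaluronan synthase Has1 and the inflammation-induced hyaladherin Tnfaip6, had the most Cxcl1, Ccl2, Ccl7, Ccl8 and Il6 in 5 of 6 libraries each. How many of all genes were highest in each subcluster is not given here. The Has1 subcluster had 1224, 1050, 2598, 5744, 6602 and 1690 CPM of Cxcl1 in libraries 1 to 6. Its median Ccl2 was 414 CPM (110.6 to 1053), its Ccl7 747 CPM (149 to 1706) and its Il6 68.4 CPM (21.9 to 235.5). The equally large F3/Pex5l/Cpz subcluster of 3912 cells had the least Ccl2 in 6 of 6 libraries and the least Cxcl1 in 4, with a median Cxcl1 of 577 CPM, but its Cxcl12 was 1261 CPM. The dissociation share was 2.98% in the Has1 subcluster and 2.29% in the F3 subcluster. It was higher, at 3.155%, in the Cd74/H2-Eb1/H2-Aa subcluster, whose median Cxcl1 was 619 CPM against 2144 CPM in the Has1 subcluster. The Igfbp3/Ptn/Gucy1a1 subcluster had a share of 2.91% and a median Cxcl1 of 2120 CPM. In library 6 it had more Cxcl1 than the Has1 subcluster, with 2332 against 1690 CPM. The part of dissociation in these differences was not tested.

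Cxcl2 had no common place. It was highest in the Smpd3/Wnt10b/Emilin2 subcluster in 3 of 6 libraries, in the Has1 subcluster in libraries 4 and 5, with 197 and 198 CPM, and in the Cd74/H2-Eb1/H2-Aa subcluster in library 6. Cxcl12, Ccl19 and Cxcl10 were highest in other subclusters than the Has1 one in 6 of 6 libraries. Cxcl12 was highest in the 805 cells of the Igfbp3/Ptn/Gucy1a1 subcluster in 4 of 6 libraries, with 2456, 1277, 3988, 2616, 1993 and 1005 CPM, followed by the Mmp3/C2/Cpz subcluster with a median of 1670 CPM. It had a median of 352 CPM in the 1145 cells of the Cytl1/Prss12/Aqp1 subcluster, which was also low in Ccl11 (1.26 CPM). Ccl19 was highest in the Mmp3 subcluster in 4 of 6 libraries, at a median of 114 CPM, and in the Cd74/H2-Eb1/H2-Aa subcluster in the others, which had the higher median of 121.5 CPM. It was lowest in the Smpd3/Wnt10b/Emilin2 subcluster in 6 of 6. Cxcl10 was highest in the 1254 cells of the Cd74/H2-Eb1/H2-Aa subcluster in 5 of 6 libraries, at a median of 47.2 CPM. That subcluster was led by MHC class II genes, which macrophages also express, and had only 15 UMIs of Ccl11 and 4 of Ccl8.

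**Figure D3:**
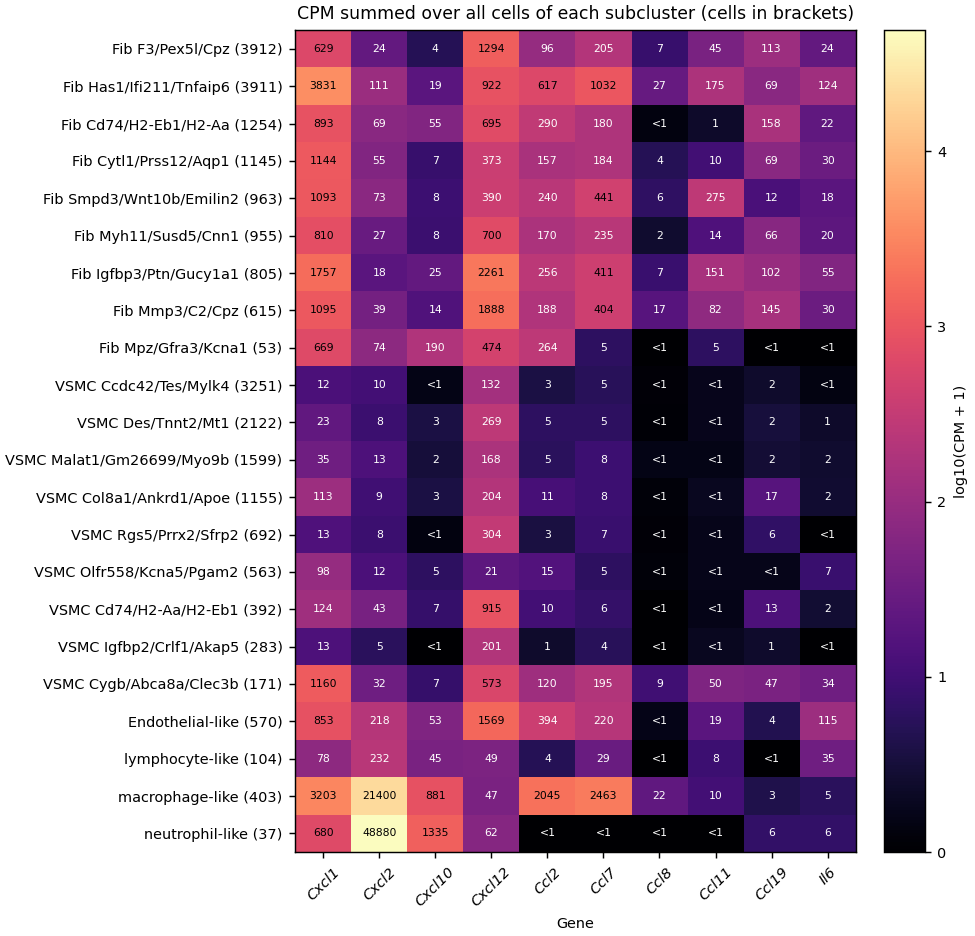
Heat map of the 10 genes (columns) by subcluster or class (rows, named by leading genes), coloured by log10(CPM + 1), with the CPM over all libraries printed in each cell. Cxcl1, Ccl2 and Ccl7 are highest among fibroblast rows in Has1/Ifi211/Tnfaip6, Cxcl12 in Igfbp3/Ptn/Gucy1a1 and Ccl11 in Smpd3/Wnt10b/Emilin2.

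The Smpd3/Wnt10b/Emilin2 subcluster of 963 cells was the one with the most Pi16 signature, Pi16 being a marker of fibroblasts found in the adventitia of many tissues. Set against the other 12650 fibroblast-like cells, 0 of 10 members were higher in every library, where 24.8% of 8793 genes were. Lower in every library were 3 members, Cxcl1, Cxcl12 and Ccl19, where 13.7% of genes were. Cxcl1 had a median of 737 against 1148 CPM (log2 ratio -0.65), Cxcl12 398 against 916 CPM (-1.32) and Ccl19 10.2 against 88.2 CPM (-2.95). The ratio of Ccl19 varied least, from -3.63 to -2.40. Ccl11 went the other way in 5 of 6 libraries, with 185, 195, 321, 375, 100.1 and 543 CPM in the subcluster. In library 5 the other fibroblast-like cells had 139 CPM and were the higher. The medians were 258 and 63.1 CPM. The dissociation share of the subcluster was below that of the other fibroblast-like cells in 6 of 6 libraries, with a median of 2.55% against 2.66%, and its part in these differences was not tested. In library 5 Cxcl1 hardly differed, at 3443 against 3461 CPM. At a finer clustering resolution of 0.4, or without the 1% of cells with the most UMIs of the member, Cxcl12, Ccl19 and Il6 were the members lower in every library, and Cxcl1 was not. Only Ccl19 was lower in every library after clustering on log-normalized counts. There the subcluster with the most Pi16 signature had 4404 cells, of which 876 were shared with the 963 (91.0% of the smaller and 19.9% of the larger). In that subcluster 6 members were higher in every library, Cxcl1 among them with a log2 ratio of 1.26, and Cxcl12 was at 0.10.

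VSMC-like cells fell into 2 main subclusters of 7677 and 2551 cells, called Tes-high and Enpep-high here. Tes and Ptprz1, which the study used to mark VSMC1, had medians of 116 and 207 CPM in Tes-high and 56.4 and 93.8 CPM in Enpep-high cells. Enpep and Notch3, used to mark VSMC2, had 17.4 and 11.7 against 84.1 and 59.9 CPM. With 2 markers each, the subclusters were not given those names. Higher in Enpep-high cells in every library were 3 of 10 members, Cxcl1, Ccl19 and Il6, where 13.7% of the 8003 genes that reached 10 CPM were. None of the 10 was lower in every library, where 14.6% of genes were. Only 6 of the 10 members passed that minimum. Il6 was not among them, and Ccl19 passed only through Enpep-high cells, where it was higher, so of these 3 only Cxcl1 can be read against that share. With no minimum the share of genes higher was 8.86%. Cxcl1 was 5.42, 5.50, 27.0, 33.0, 45.4 and 8.28 CPM in Tes-high cells and 52.4, 40.4, 167, 610.4, 76.7 and 63.6 CPM in Enpep-high cells. The ranges overlapped, since libraries 1 and 2 of Enpep-high cells lay near library 5 of Tes-high cells, and the within-library log2 ratio had a median of 2.89 (0.76 to 4.21). Ccl19 had a median of 6.65 against 2.39 CPM (log2 ratio 2.40). Il6 had 4.54 against 0.739 CPM (2.09), from 114 and 54 UMIs, and in library 2 its direction rested on 1 UMI. Il6 was no longer higher in every library without the 1% of cells with the most of it. Cxcl12, the most abundant member in VSMC-like cells, was alike in level, with 177 against 181 CPM and ratios from -0.33 to 0.39.

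Several measures moved with the Enpep-high cells. Their dissociation share was higher in 6 of 6 libraries, with a median of 2.48% against 1.71%. The 8 fibroblast genes were at 13.8% of their fibroblast level against 10.7%, and were higher in all libraries except library 5. With cells matched on the dissociation share the median log2 ratios were 2.38 for Cxcl1, 2.16 for Ccl19 and 1.67 for Il6. Without the subclusters led by another class they were 1.95, 1.84 and 1.78. The median Cxcl1 level was 17.6 CPM in Tes-high cells against a free RNA level of 128 CPM by the 8 genes, and 70.2 CPM in Enpep-high cells against 188 CPM. Enpep-high cells were above the free level in library 4 only, at 610.4 against 582 CPM. Without the subclusters led by another class that library had 230.1 against 338 CPM, and none was above. These free levels rest on the 8 genes. With Dcn alone, Cxcl1 of all VSMC-like cells was above its free level in every library. Levels by Dcn alone are not given here for Tes-high and Enpep-high cells.

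At a finer division, Cxcl12 differed widely among VSMC subclusters. It was highest in 4 of 6 libraries in the 392 cells of the Cd74/H2-Aa/H2-Eb1 subcluster, with 442, 142, 1089, 1428, 1536 and 84.9 CPM, and was lowest in 6 of 6 in the 563 cells of the Olfr558/Kcna5/Pgam2 subcluster, with 6.06 to 43.1 CPM. The Rgs5-marked subcluster of 692 cells had a median of 332 CPM. Cxcl1 had a median of 77.8 CPM in the 1155 cells of the Col8a1/Ankrd1/Apoe subcluster and 85.6 CPM in the Olfr558 subcluster. The Ccdc42/Tes/Mylk4 subcluster, the largest with 3251 cells, had 7.25 CPM. Dissociation shares were 2.41%, 3.55% and 1.21% in these 3 subclusters. Of all 8 subclusters not led by another class, the Olfr558 subcluster had the highest share and the highest median Cxcl1, followed in both by the Col8a1 subcluster, and the Rgs5, Ccdc42 and Igfbp2 subclusters were the lowest 3 in both. In the others the orders differed. In single libraries Cxcl1 was highest in the Olfr558 subcluster in 1 of 6, in the Col8a1 subcluster in 3 and in the Cd74/H2-Aa/H2-Eb1 subcluster in 2. The Des/Tnnt2/Mt1 subcluster had a share of 2.18% and 13.8 CPM of Cxcl1, and the Cd74/H2-Aa/H2-Eb1 subcluster 1.99% and 43.1 CPM, a median over libraries from 0 to 385 CPM. The part of dissociation in these levels was not tested. Ccl19 was highest in the Col8a1 subcluster in 5 of 6 libraries, at 4.45 to 66.3 CPM. The fibroblast marker Lum was among the 10 leading genes of the Col8a1 and Cd74 subclusters, where 3.90% and 1.02% of cells were marked as doublets. The part of fibroblast RNA in the Ccl19 and Cxcl12 levels there was not tested.

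Within each library, fibroblast-like cells were then ranked by the dissociation share and divided into tertiles of 4540, 4539 and 4534 cells. The share was 1.27% in the lowest and 4.38% in the highest tertile. Higher in the highest tertile in every library were 6 members, Cxcl1, Cxcl2, Cxcl10, Ccl2, Ccl7 and Il6, where 10.1% of 8358 genes were. Cxcl10 reached the minimum of 10 CPM only through the highest tertile, so it cannot be read against that share. Without the 1% of cells with the most UMIs of the member, Cxcl2 dropped out and the other 5 stayed. Cxcl12 was lower in every library, where 21.7% of genes were. Cxcl1 was 86.7, 84.2, 379, 1627, 2350 and 140 CPM in the lowest tertile of libraries 1 to 6, and 1081, 1044, 2453, 3212, 4244 and 1764 CPM in the highest. The median log2 ratio was 3.16, but it was 0.98 and 0.85 in libraries 4 and 5, where the lowest tertile already had more Cxcl1 than the highest tertile of libraries 1 and 2. Il6 went from a median of 7.46 to 65.9 CPM (log2 ratio 2.98), Ccl2 from 66.1 to 370.5 CPM (2.93, or 1.79 without library 1, 2 or 6 and 4.08 without library 3, 4 or 5) and Ccl7 from 122 to 555 CPM (2.44). Libraries 4 and 5 had the smallest ratios of these genes too.

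Cxcl12 moved little and in the other direction, from a median of 1055 to 835 CPM, with a log2 ratio of -0.30 (-0.58 to -0.04). Ccl8, Ccl11 and Ccl19 had no common direction. Their levels in the highest tertile were higher in 3, 4 and 1 of 6 libraries. The median depth was 6139 UMIs per cell in the lowest tertile and 5667 in the highest. As a description across libraries, the dissociation share of fibroblast-like cells was 2.57, 2.13, 2.73, 3.00, 3.47 and 2.25% in libraries 1 to 6. Libraries 4 and 5, the highest, were also those with the most Cxcl1, Cxcl2, Ccl2, Ccl7 and Il6. They had the most Cxcl10 and Ccl11 too, although Ccl11 had no common direction between tertiles. Whether libraries differed in digestion time is not given by library in the labels, so dissociation and any difference between the mice cannot be told apart.

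**Figure D4:**
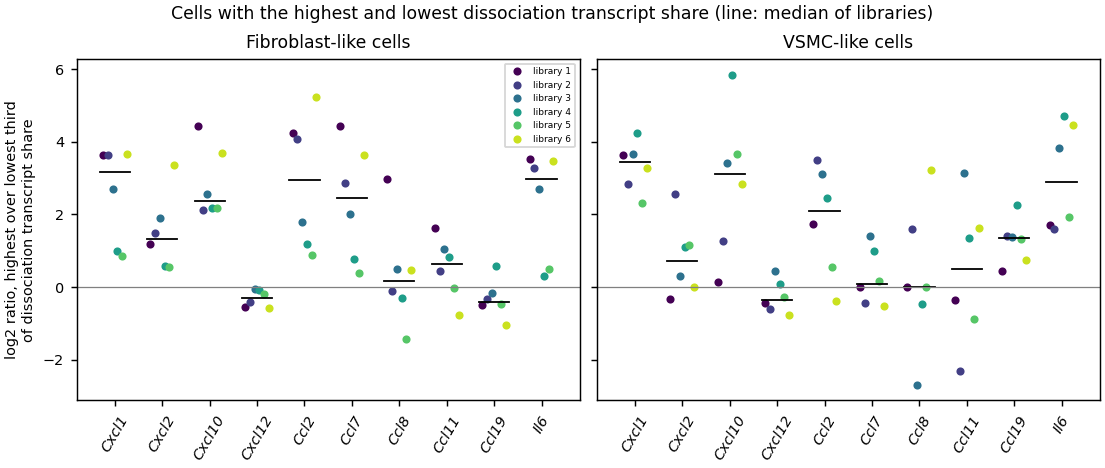
Log2 ratio of the level in the highest to the lowest tertile of dissociation share, for each gene and library (dots; the line is the median), in fibroblast-like cells and in VSMC-like cells. In fibroblast-like cells 6 genes lie above 0 in every library and Cxcl12 lies below 0 in every library.

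In VSMC-like cells, ranked the same way, 4 members were higher in the highest tertile in every library, Cxcl1, Cxcl10, Ccl19 and Il6, where 9.29% of 8008 genes were. Without the 1% of cells with the most UMIs of the member only Cxcl1 was, and with cells ranked by heat shock genes alone only Cxcl10 and Ccl2 were. None was lower in every library, where 25.2% of genes were. Only Cxcl1 of these 4 reached 10 CPM in either tertile over all libraries. Its median went from 8.70 to 83.5 CPM (log2 ratio 3.46). Cxcl10, at 0.397 and 5.87 CPM, and Il6, at 0.095 and 2.63 CPM, rested on few UMIs. Cxcl12 had no common direction, at 193.5 and 154 CPM.

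Transcripts of several members were concentrated in a small part of the fibroblast-like cells. The 5% of cells with the most UMIs of a gene held a median of 49.9% of its UMIs for Cxcl1 and 35.6% for Cxcl12. For Ccl2 and Ccl7 the same part held 79.6% and 79.3%, for Il6 85.3% and for Ccl11 93.9%. At least 10 UMIs of Cxcl1 were found in 3323 fibroblast-like cells, or 24.4%, and 1 cell held 408. At least 10 UMIs of Ccl11 were found in 1.98% of them, and 1 cell held 185. Ccl19 was more evenly spread than Ccl11, with 54.3% of its UMIs in that part, although its median level, 84.7 CPM, was close to the 76.4 CPM of Ccl11. In leukocyte-like cells the same part held 27.3% of Cxcl2, and 58.3% of these cells had at least 10 UMIs of it.

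Fibroblast-like cells with more Cxcl1 tended to have more of several other members. Fibroblast-like cells were divided at the median Cxcl1 share of their library into 6331 above it and 7282 at or below it. Cells above it had more Ccl2, with a median of 351 against 84.9 CPM, more Ccl7, with 564 against 110.3 CPM, and more Il6, with 53.3 against 13.6 CPM, each in 6 of 6 libraries. Cxcl2, Cxcl10 and Ccl8 were also higher in 6 of 6, where 7.61% of the 8290 other genes that reached 10 CPM were. Cxcl10 and Ccl8 reached that minimum only through the cells above the median. Cxcl12 was higher in 1 of 6 libraries, Ccl19 in 3 and Ccl11 in 4. As a description across cells, which share library, depth and dissociation, the median correlation over libraries of Cxcl1 was 0.336 with Ccl7, 0.321 with Ccl2, 0.278 with Il6 and -0.003 with Cxcl12. It was 0.351 with the dissociation share itself.

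Genes with the most similar pattern were sought among genes of at least 10 CPM in fibroblast-like or VSMC-like cells, over 97 sums of cells, each a subcluster in a library, which share libraries and cell types. Across these sums the nearest to Cxcl1 were Ccl2 (r = 0.941), Ccl7 (0.929) and Nfkbia (0.926). Those nearest to Cxcl2 were Cxcl10 (0.835), Pcna (0.82) and H2afz (0.80). The first place was held by Laptm4a (0.831) for Cxcl12, Ifi211 (0.852) for Ccl11, Slc1a3 (0.907) for Ccl19 and Zfp36l1 (0.89) for Il6. Over the 46 sums of fibroblast subclusters alone, Cxcl1 was nearest to Tnfsf9 (0.861), Ccl7 (0.861) and Ccl2 (0.855), and Cxcl2 to Nfkbiz (0.824), Prkx (0.736) and Sfpq (0.735). The genes nearest to Cxcl12 were Steap4 (0.876), Gas6 (0.837) and Vegfd (0.796), and those nearest to Ccl11 were Vit (0.878), Ifi211 (0.838) and the complement gene C3 (0.826). Il6 was nearest to Icam1 (0.802), Apod (0.796) and Ppp1r2 (0.786), and Ccl19 to Crispld2 (0.805), Slc1a3 (0.762) and Lum (0.749).

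Most receptor genes of these ligands that reached 10 CPM were highest in leukocyte-like cells, but not all receptors were abundant there. Of 24 receptor genes, Il6ra and Il6st included, 16 reached 10 CPM in a class, and 12 of those were highest in leukocyte-like, 3 in endothelial-like and 1 in fibroblast-like cells. Leukocyte-like cells had 14 receptor genes at 10 CPM, endothelial-like 6, VSMC-like 3 and fibroblast-like 2, so some were counted through leukocyte-like cells alone. The share of all genes highest in each class is not given here, for this list or for those below. Ccr2, the receptor of Ccl2 and Ccl7, had a median of 93.0 CPM in leukocyte-like cells, and Ccr1 had 93.2 CPM. Cxcr4, the receptor of Cxcl12, had 90.2 CPM there, and Cxcr3, that of Cxcl10, had 11.2 CPM. Cxcr2, through which Cxcl1 and Cxcl2 act, had 3.36 CPM. Ccr3 had 0.62 CPM and Ccr7 1.12 CPM (0 to 122.7). The scavenging Cxcl12 receptor Ackr3 was the receptor gene highest in fibroblast-like cells, with 454 CPM (410 to 570.4) in fibroblast-like cells, 262 CPM in endothelial-like and 27.3 CPM in VSMC-like cells.

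Of the remaining chemokine genes, 27 of 28 listed were in the matrix and 19 reached 10 CPM in a class. Of these, 12 were highest in leukocyte-like cells, among them Ccl4 (a median of 3570 CPM), Pf4 (1109 CPM), Ccl12 (806 CPM) and Ccl3 (626 CPM). Endothelial-like cells had 4172 CPM of Ccl21a (0 to 11230), another ligand of Ccr7. Fibroblast-like cells were highest for 4 genes, with Cxcl5 at 10.1 CPM, and VSMC-like cells for 1, Ccl27a, at 41.7 CPM.

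Some Il6 signalling genes reached 10 CPM in each of the classes. Of 13 in the list, 11 reached 10 CPM in a class. Endothelial-like cells were highest for 6 of them, leukocyte-like cells for 3, and fibroblast-like and VSMC-like cells for 1 each. The specific receptor subunit Il6ra had 65.7 CPM in leukocyte-like and 7.44 CPM in fibroblast-like cells. The shared subunit Il6st had 120 CPM in fibroblast-like, 141 CPM in endothelial-like and 46.2 CPM in VSMC-like cells. Socs3, a feedback inhibitor induced by Il6-type cytokines, had 523 CPM in endothelial-like, 338 CPM in fibroblast-like and 100.0 CPM in VSMC-like cells. Il11ra1, the receptor subunit for the related Il11, had 561 CPM in fibroblast-like cells.

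Among listed cytokines that induce these ligands, most that reached 10 CPM were highest in leukocyte-like cells. Of 15 listed, 12 reached 10 CPM and 8 were highest in leukocyte-like cells, among them Tnf (a median of 1298 CPM) and Il1b (701.5 CPM, 273 to 6601). Fibroblast-like cells had 202 CPM of the alarmin Il33, 98.6 CPM of Csf1 and 45.2 CPM of the receptor Il1r1. Of 21 NF-κB and interferon genes, all reached 10 CPM, 13 highest in leukocyte-like, 7 in endothelial-like and 1 in fibroblast-like cells. Nfkbia had 2478 CPM in leukocyte-like, 1107 CPM in endothelial-like, 724.5 CPM in fibroblast-like and 170.2 CPM in VSMC-like cells, the order that Cxcl1 also had except for the place of the middle pair. The C/EBP factor Cebpd had 1074 CPM in fibroblast-like and 363 CPM in VSMC-like cells.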

How the data were processed

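Single-cell 3′ libraries of 6 mice were sequenced, and the authors mapped the reads to mm10 and merged the libraries (Cell Ranger 6). The deposited matrix holds UMI counts of 31055 features, not normalized, and its header names version 4.0.0. Its barcode suffixes were used as libraries (18218282 to 38105145 UMIs in the cells kept), and no column was left unmapped. Cells were kept by the authors' limits on genes, UMIs and mitochondrial share. Classes came from SCTransform, RPCA integration over libraries and clustering in Seurat 5.3.0 (3000 variable genes, 30 components, resolution 0.25 for classes, 0.2 and 0.3 for fibroblast and VSMC subclusters, 0.05 for Tes-high and Enpep-high cells), with 89 listed genes, the members included, left out of the class step. Doublets were marked with Scrublet in scanpy 1.11.5 in libraries 1, 3, 4 and 6, and by the highest 5% of scores in libraries 2 and 5, where the caller marked under 0.5%. They were kept in and left out as an alternative. UMIs were summed per library and group, divided by the group's total (CPM) and compared as log2 ratios with 0.5 UMI added, over genes with at least 10 CPM in either pooled group. With no group per library, no p-value was computed. The ratio calculation was tested on simulated counts. Alternatives included TMM factors (edgeR 4.0.16), other totals, priors, filters and clusterings, and leaving out each library. The members and lists were chosen with earlier results of these data known. Named genes were the members, their receptors, listed genes of at least 10 CPM in a class, the 3 genes most like each member and the 3 that led each subcluster. Replicates are separate mice by the labels.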

Additional observations from a re-analysis of the deposited data

Results flagged for a closer look

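In 2 of 29 sets of 6 libraries the highest library lay far from the others, where chance alone would give about 1 in 20. Cxcl1 in VSMC-like cells had 210.7 CPM in library 4 against 15.1 to 59.95 CPM in the other libraries. Without the subclusters led by another class it was 83.8 CPM. Cxcl10 in endothelial-like cells had 281.0 CPM in library 5, with 135 UMIs in a class of 86 cells there, and at most 22.1 CPM in the others. A single cell held 77 of those UMIs, and at most 22 were found in any other library.

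The 5744 barcodes left out by the cell filter, 4704 of which had up to 1500 UMIs, also held every member. Their median levels over libraries were 1126 CPM for Cxcl1, 1817 CPM for Cxcl2, 89.7 CPM for Cxcl10, 642 CPM for Cxcl12, 215 CPM for Ccl2, 324 CPM for Ccl7, 3.14 CPM for Ccl8, 43.2 CPM for Ccl11, 28.4 CPM for Ccl19 and 18.5 CPM for Il6. Cxcl2 reached 15500 CPM in the left-out barcodes of library 6, the library with 33 of the 37 neutrophil-like cells, and was at 408 CPM in the cells kept over all libraries.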

How the results depend on the processing

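Each count of members was recomputed under the alternatives, of which 163 values stayed within 1.5 times of the count reported and 8 did not; the cause was not tested. In the Pi16-marked subcluster the members higher in every library went from 0 to 6 (Cxcl1, Ccl2, Ccl7, Ccl8, Ccl11 and Il6), and those lower from 3 to 1 (Ccl19), after clustering on log-normalized counts. Without library 5, 1 member (Ccl11) was higher there. Of the 4 members higher in the highest tertile of VSMC-like cells, 1 (Cxcl1) was left without the 1% of cells with the most UMIs of the member, and ranking by heat shock genes alone gave 2 (Cxcl10 and Ccl2). The members above the free RNA level in VSMC-like cells went from 1 to 2 (Cxcl2 and Cxcl12) without library 6, to 5 with Dcn alone, and to 0 with macrophage RNA added. That alternative, and leaving out shared barcodes or subclusters led by another class, were chosen after seeing the data.

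Leaving out each library gave 10 to 10 members higher and 0 to 0 lower in fibroblast-like cells, 3 to 4 higher and 0 to 0 lower in Enpep-high cells, 0 to 1 higher and 3 to 4 lower in the Pi16-marked subcluster, 6 to 6 and 4 to 5 higher in the highest tertile of fibroblast-like and VSMC-like cells, and 1 to 2 and 6 to 6 above the free level in VSMC-like and leukocyte-like cells. Of the single values, 1184 moved by less than their error, 85 moved by more, and 5 that had a single direction in every library changed sign. These were, as median log2 ratios, Cxcl1 at 1.26 and Cxcl12 at 0.10 in the Pi16-marked subcluster after log clustering, Cxcl1 at 0.33 and Il6 at 0.36 over the free level in VSMC-like cells with Dcn alone, and Cxcl2 at -0.63 over it with macrophage RNA added. Values without a common direction changed sign too, such as Ccl19 over the free level in VSMC-like cells, which went from -1.23 to 1.38 with Dcn alone. The clustering alternative for Enpep-high against Tes-high cells was not run, since no resolution gave a pair of subclusters.

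No paired analysis was possible because the barcode suffixes are not tied to mice, although CTL and LDS share replicate numbers 1 and 2. Depth limits Cxcl10, Ccl8, Ccl11, Ccl19 and Il6 in VSMC-like cells, which rest on 164, 31, 156, 417 and 168 UMIs, and every endothelial value of library 6.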
